A study of Macaca fuscata with 18 samples.

Results

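The collagen chains are the 44 of 19747 gene symbols in a transcript count table that are named as a chain of a collagen (COL, a type number, A and a chain number), each taken as its transcript row with the highest mean CPM (its counts relative to all those of a library, scaled to a common total). The CPM given are relative to the counts of the rows so kept and are TMM-normalized, a scaling that evens out differences in composition between libraries. Together they had 88 of 29686 rows, and 15 chains had more than 1 row. The tissue was the anterior subventricular zone (SVZa), the stem cell niche beside the lateral ventricle, of adult Japanese macaques (Macaca fuscata) aged 4 to 6 years. In 3 monkeys (MK503, MK506 and MK507) the brachiocephalic trunk and the left subclavian artery, of which the labels name the latter alone, were clipped for 18 minutes to make transient global ischemia of the brain, and 3 sham-operated monkeys (MK501, MK504 and MK508) had the same surgery without clipping. All 6 were sacrificed 7 days after surgery. The study took 3 adjacent fragments from the striatal side of the right ventricle of each monkey, A1 to A3, which gave 18 libraries of bulk RNA. The hemisphere and the day after surgery were the same in all, a fragment holds several cell types, and whether a fragment number marks the same place in each monkey is not stated.

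Collagens are triple helices of 3 chains, and each type is built from its own set of chains. Fibrillar collagens (I, II, III, V, XI) form the cables of connective tissue, collagen IV forms the sheet of basement membranes, collagen VI forms beaded filaments, and the fibril-associated collagens (IX, XII, XIV, XVI) sit on the surface of fibrils. The brain has little fibrillar collagen outside the meninges and the walls of larger vessels, and its collagen IV lies mainly in the basement membrane of capillaries. In the rodent subventricular zone, branched basement membranes that reach from vessels to the ependyma, called fractones, are in contact with the stem cells.

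Libraries held 18076257 to 74551396 counts, with a median of 38019896 in sham and 55634148 in ischemia. The libraries of the first pair of monkeys (MK504 and MK503) were the 6 shallowest, and 3 of them had POLE2 at over 10000 CPM, while MALAT1, a nuclear noncoding RNA, was at 17556 to 21816 CPM in that pair and at 614 to 3999 CPM in the other 4 monkeys. Markers of ependyma (FOXJ1, 1.96 to 312 CPM), astrocytes, striatal neurons and oligodendrocytes were found in each library, at levels that varied between fragments of a monkey. Choroid plexus markers were high in few libraries, and TTR, the transport protein that choroid plexus makes in bulk, exceeded 1000 CPM in 4, all from sham monkeys: A2 of MK501 (72279 CPM), A1 of MK504 (4013 CPM), A3 of MK501 (2405 CPM) and A1 of MK508 (1040 CPM). Many results that rest on these libraries are given with and without them. Some, among them those of COL4A6, COL27A1 and PCOLCE, are given only with all libraries. In bulk tissue, fewer cells of a type and less RNA per cell cannot be told apart, here or in any result that follows.

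For ischemia against sham, counts were added up over the fragments of each monkey, and the 6 sums were fitted in edgeR with a term for the pair (MK504 with MK503, MK501 with MK507, MK508 with MK506). All 44 chains passed the filter on low counts, and none passed at an adjusted p of 0.05, as none of the 17522 symbols did (0%). The smallest adjusted p of a chain was 0.2055 (edgeR's quasi-likelihood test, Benjamini-Hochberg adjustment). At an unadjusted p under 0.05, 4 chains were higher in ischemia (COL9A2, COL5A3, COL9A3 and COL6A2), where 8.38% of all symbols were, and 4 were lower (COL4A3, COL4A4, COL15A1 and COL16A1), where 8.04% were. DESeq2, run as an alternative on the same sums, called 2 chains higher (COL9A2 and COL5A3) and 2 lower (COL4A3 and COL15A1) at an adjusted p under 0.05, against 3.85% and 2.48% of all symbols. The counts in both tools are thus near the background of these libraries. They also depended on which libraries were summed: without the A1 fragments none of 43 chains had an unadjusted p under 0.05, where 2.49% of all symbols were higher and 3.91% lower. Without the A2 library of MK501 there were 9 higher and 4 lower of 44, beside 9.55% and 9.89% of all symbols. Without the 4 libraries with TTR above 1000 CPM there were 13 higher and 3 lower of 43, beside 11.3% of all symbols higher and 1710 of 17096 symbols lower. Those 4 libraries are all from sham monkeys. That fit therefore set A1 alone of MK501, and A2 and A3 of MK504 and MK508, against all fragments of their partners. It had no term for the fragment, so fragment and treatment are not balanced there or wherever those libraries are left out. Leaving out each monkey in turn, with its pair, gave 3 to 7 higher and 2 to 7 lower, beside 3.95% to 12.1% and 3.23% to 10.1% of all symbols.

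The log2 fold changes of ischemia over sham were positive for 17 chains and negative for 27, from -1.53 (COL4A3) to 1.02 (COL9A2), with a median of -0.16 beside -0.02 over all symbols. The median chain was higher in ischemia in the first pair (0.28) and lower in the second (-0.21) and the third (-0.09). In all 3 pairs, 8 chains were higher (20.7% of all symbols were) and 11 were lower (22.4% were). No chain had all 3 ischemic monkeys above the 3 sham monkeys (2.49% of symbols), and 3 had all of them below (COL4A3, COL15A1 and COL17A1; 2.67% of symbols).

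**Figure D1:**
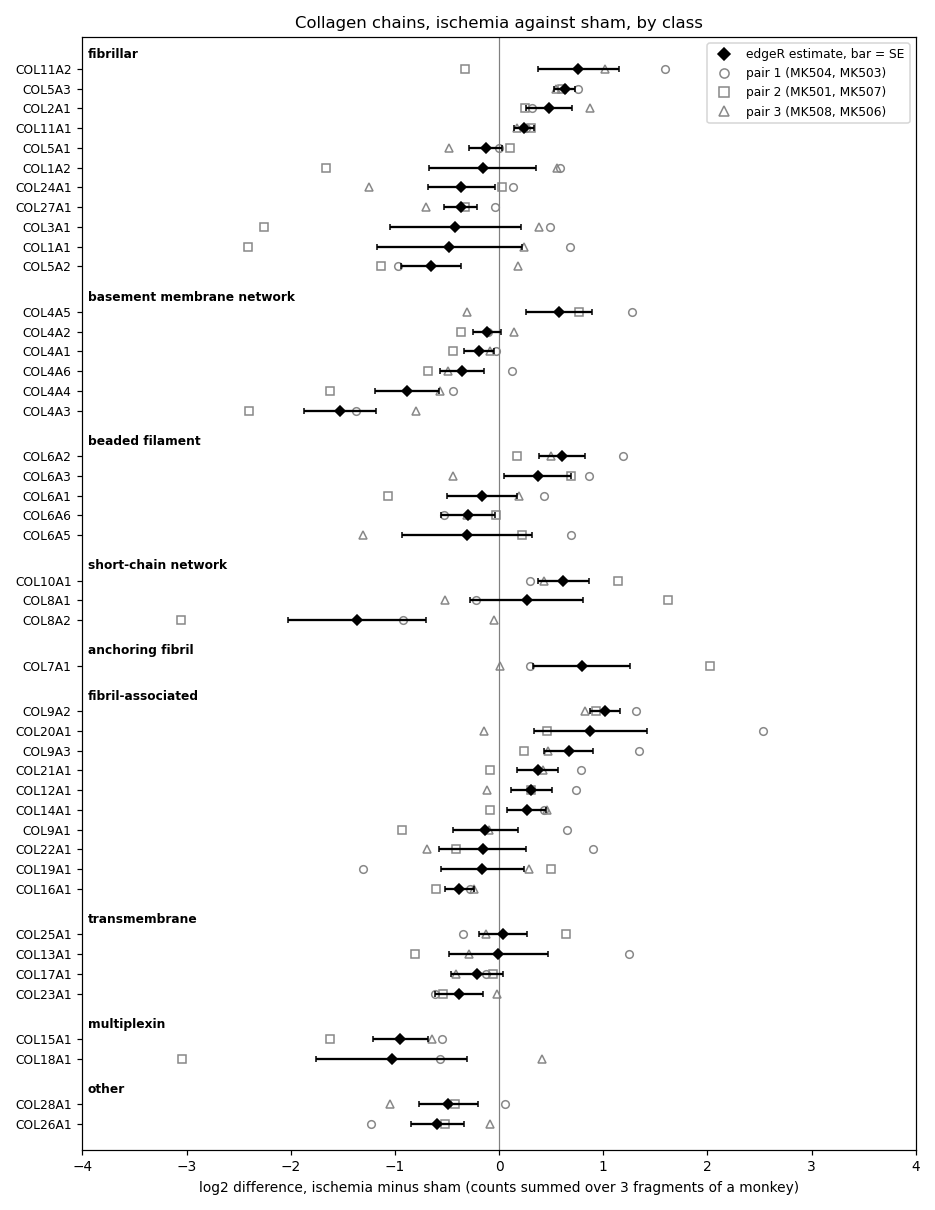
Log2 difference of ischemia minus sham (x axis) for the 44 chains by class (y axis). Black diamonds are edgeR estimates with their standard error, and open symbols are the 3 pairs of monkeys; the estimates run from -1.53 for COL4A3 to 1.02 for COL9A2, and pair 2 lies far to the left for COL8A2, COL18A1, COL1A1 and COL3A1.

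Collagen IX, a trimer of the COL9A1, COL9A2 and COL9A3 chains that coats cartilage fibrils, had 2 of its 3 chains higher in the ischemic member of each pair. COL9A2 was at 33.5, 97.2 and 168 CPM in the sham monkeys MK504, MK501 and MK508, and at 83.4, 185 and 297 CPM in their ischemic partners MK503, MK507 and MK506. The groups overlapped because the pairs differed in level, but within each pair the ischemic monkey was the higher. The log2 fold change was 1.02 (SE 0.14), a 2.02-fold difference, with an adjusted p of 0.2055 in edgeR's quasi-likelihood test and of 4e-06 in DESeq2. COL9A3 was at 13.1, 78.5 and 77.1 CPM in sham and at 33.4, 92.8 and 107 CPM in ischemia in the same order. Its log2 fold change was 0.67 (SE 0.23), with an adjusted p of 0.2794 in edgeR and of 0.096 in DESeq2. COL9A1, the third chain of the trimer, went another way: it was at 42.2, 169 and 149.7 CPM in sham and at 66.2, 88.8 and 140.4 CPM in ischemia, higher in 1 pair and lower in the other pairs. The estimate for COL9A1 was -0.13 (SE 0.31), and whether it differed from those of its partner chains was not tested.

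COL9A2 also varied between the fragments of a monkey, and it was high where oligodendrocyte markers were high. The 3 libraries with the most counts of the 10 oligodendrocyte lineage markers were A3 of MK508 (46463 CPM in sum), A1 of MK506 (44893 CPM) and A1 of MK503 (28349 CPM), and the other 15 lay between 1532 and 19932 CPM. In those 3 libraries COL9A2 was at 304, 595 and 129 CPM, each the highest fragment of its monkey. The fragment with the most oligodendrocyte marker counts was also the one with the most COL9A2 in 5 of 6 monkeys. It was the one with the most COL9A3 in 4 of 6 and with the most COL9A1, which was not higher in ischemia, in 4 of 6. Microglia markers gave the same counts. All 10 of the markers tested were themselves higher in ischemia at an unadjusted p under 0.05 (8 at an adjusted p under 0.05 in DESeq2), with a median log2 fold change of 1.42. Their summed level ranged over libraries from 1821 to 46463 CPM in sham and from 1532 to 44893 CPM in ischemia. The part of these cells in the COL9A2 difference was not tested. Without the 3 libraries named, the log2 fold change of COL9A2 was 0.73 and that of COL9A3 was 0.38, and without the A1 fragments they were 0.42 and 0.051.

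**Figure D2:**
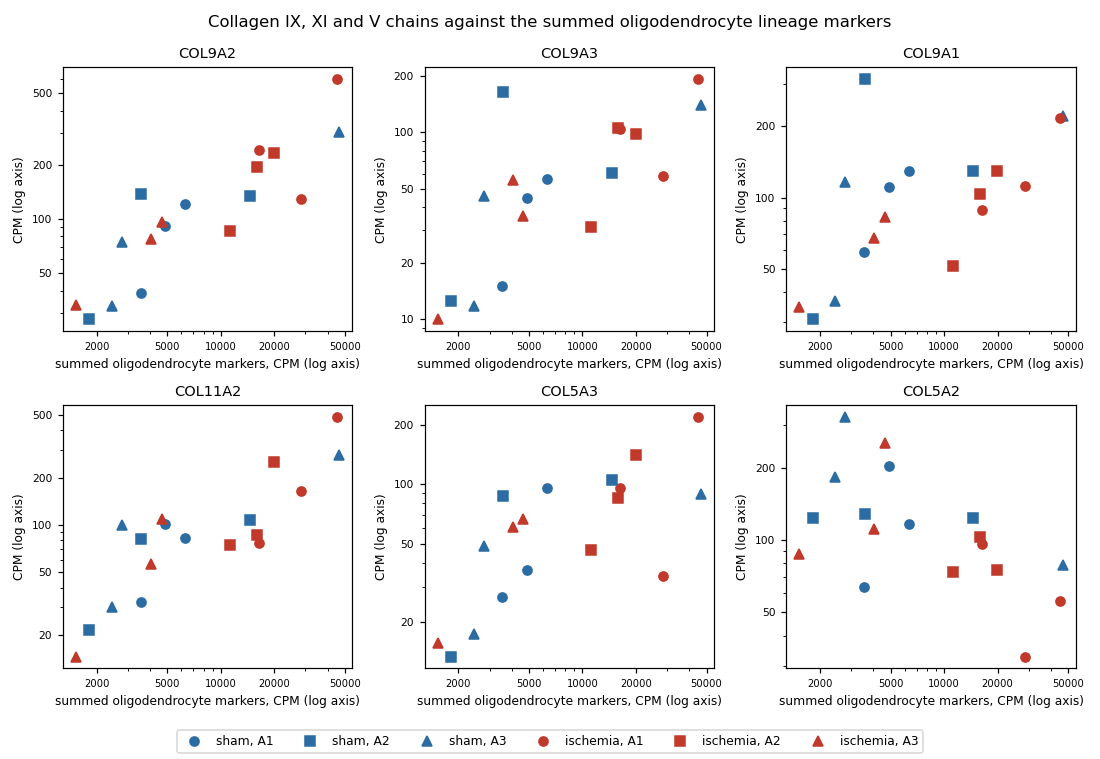
CPM of 6 chains (y axes, log) against the summed CPM of 10 oligodendrocyte lineage markers (x axes, log) in 18 libraries, blue for sham and red for ischemia, with a symbol for each fragment number. COL9A2 and COL11A2 are higher in libraries with more marker counts in both groups, COL9A1 and COL9A3 have the A2 library of MK501 (313 and 165 CPM) far above libraries of like marker counts, and COL5A2 runs the other way.

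The minor fibrillar collagens V and XI, which set the diameter of fibrils, held 4 of the 8 chains with the highest mean CPM. COL5A3 was at 19.2, 55.0 and 97.3 CPM in the 3 sham monkeys, in the order of the pairs, and at 32.5, 83.6 and 142 CPM in their ischemic partners. It was higher in ischemia in each pair by a like amount, with a log2 fold change of 0.63 (SE 0.10), an adjusted p of 0.2055 in edgeR's quasi-likelihood test and of 0.0031 in DESeq2. The estimate was 0.47 without the 3 libraries with the most oligodendrocyte marker counts and 0.36 without the 3 libraries in which POLE2 exceeded 10000 CPM, all of the first pair, and it was 0.90 without the 4 libraries with TTR above 1000 CPM. The fragment with the most oligodendrocyte marker counts had the most COL5A3 in 3 of 6 monkeys. For choroid plexus markers this held in 5, and for ependyma markers and for pericyte and smooth muscle markers in 4 each. COL11A2 was at 28.2, 94.5 and 137 CPM in sham and at 85.2, 75.1 and 277 CPM in ischemia, higher in 2 pairs and lower in the second. Its log2 fold change of 0.76 was 0.18 without the A1 fragments and 1.33 without the A3 fragments. Its highest libraries were A1 of MK506 (486 CPM) and A3 of MK508 (278 CPM), both among the 3 with the most oligodendrocyte marker counts, and its lowest was A3 of MK503 (14.6 CPM), which had the fewest such counts of all. COL11A1, its partner in collagen XI, was at 55.9, 43.8 and 47.0 CPM in sham and 67.0, 54.1 and 52.9 CPM in ischemia. It was higher in ischemia in all 3 pairs, with a log2 fold change of 0.24 (SE 0.10) and an adjusted p of 0.3142 in edgeR.

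COL5A1 and COL5A2, the chains of the common form of collagen V, had negative estimates. COL5A1 was at 78.5, 157 and 211 CPM in sham and at 78.4, 169.8 and 151 CPM in ischemia, with a log2 fold change of -0.13 (SE 0.15), and the groups overlapped widely. COL5A2 was at 127, 225 and 109.8 CPM in sham and at 64.8, 103 and 125 CPM in ischemia, lower in 2 pairs, with a log2 fold change of -0.65 (SE 0.29) and an adjusted p of 0.3391 in edgeR. It varied with the neurons' markers: the fragment with the most counts of striatal neuron markers was the one with the most COL5A2 in 6 of 6 monkeys, and A3 of MK501, the library with the most such counts (9842 CPM), had the most COL5A2 (325 CPM). A1 of MK503, with the fewest (236 CPM), had the least (32.7 CPM). The median log2 fold change of those markers was -0.87, with 5 of 10 lower at an unadjusted p under 0.05 and none higher, and their part in the COL5A2 values was not tested.

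The major fibrillar collagens I and III, products of fibroblasts in the meninges and in vessel walls, were low in most libraries and high in few. COL3A1 was at 12.04, 21.3 and 3.67 CPM in the sham monkeys and, in the order of the pairs, at 16.9, 4.43 and 4.79 CPM in the ischemic monkeys. The value of MK501 came from 1 fragment: its A2 library had 67.8 CPM, and its A1 and A3 libraries had 2.64 and 3.41 CPM. COL1A1 was at 37.9 CPM in the same library and at 0.87 to 8.3 CPM in the other 17, and COL1A2 at 74.4 CPM and at 1.68 to 30.5 CPM. That library also had the most counts of the fibroblast markers DCN (188 CPM) and LUM (46.7 CPM) and of the smooth muscle markers ACTA2 (107 CPM) and TAGLN (146 CPM). Over the 12 fibroblast and meninges markers the summed level ranged from 228 to 718 CPM in sham and from 187 to 579 CPM in ischemia, and the fragment with the most of them had the most COL1A1 and COL1A2 in 6 of 6 monkeys. PDGFRA had the highest mean of the 12 (112 CPM). It was highest in A1 of MK503 (330 CPM), 1 of the 3 libraries with the most oligodendrocyte marker counts. With all libraries the log2 fold changes were -0.48 (SE 0.69) for COL1A1, -0.16 (SE 0.52) for COL1A2 and -0.42 (SE 0.63) for COL3A1. Without the A2 library of MK501 they were 0.39, 0.61 and 0.46, so the direction of the major fibrillar collagens rested on 1 fragment. The other fibrillar chains were COL2A1, higher in all 3 pairs (0.48, SE 0.22), and COL24A1 (-0.36, SE 0.32) and COL27A1 (-0.37, SE 0.16). COL27A1 was lower in all 3 pairs, and none of these chains passed an adjusted p of 0.05. The highest libraries of COL27A1 were A2 of MK501 (104 CPM) and A1 of MK508 (86.65 CPM), both with TTR above 1000 CPM.

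The 6 basement membrane chains gave estimates from -1.53 to 0.58. COL4A1 and COL4A2, which make the common collagen IV of capillaries, had small estimates and overlapping groups. COL4A1 was at 23.3, 19.4 and 12.7 CPM in sham and at 22.8, 14.2 and 11.9 CPM in ischemia, with a log2 fold change of -0.19 (SE 0.14). COL4A2 was at 27.7, 41.1 and 26.4 CPM in sham and at 25.8, 32.0 and 29.0 CPM in ischemia, with -0.11 (SE 0.14). The median log2 fold change of endothelial markers was -0.31, with 3 of 12 lower at an unadjusted p under 0.05 and none higher, and that of pericyte and smooth muscle markers was -0.22, with 3 of 12 lower and none higher.

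COL4A3 and COL4A4, which with COL4A5 make the collagen IV of kidney glomeruli and of other specialised basement membranes, had lower values in ischemia. COL4A3 was at 16.2, 18.8 and 6.27 CPM in sham and at 6.23, 3.56 and 3.60 CPM in ischemia, in the order of the pairs, so all 3 ischemic monkeys lay below the 3 sham monkeys, the first of them by a narrow margin. The log2 fold change was -1.53 (SE 0.35), 0.35 of the sham level, with an adjusted p of 0.2088 in edgeR's quasi-likelihood test and of 0.000607 in DESeq2. COL4A4 was at 8.10, 5.04 and 3.30 CPM in sham and at 5.96, 1.62 and 2.22 CPM in ischemia, lower in each pair, with a log2 fold change of -0.88 (SE 0.31) and an adjusted p of 0.278 in edgeR and of 0.105 in DESeq2. Both were highest in the libraries with the most TTR: COL4A3 was at 48.1 CPM in A2 of MK501 and 31.5 CPM in A1 of MK504 and at 2.45 to 9.33 CPM in the other 16, and COL4A4 was at 9.40 and 12.3 CPM in these libraries. Of 12 choroid plexus markers, 8 were lower in ischemia at an unadjusted p under 0.05 and 1 was higher (AQP1), with a median log2 fold change of -2.37, and their summed level ranged from 79.8 to 75802 CPM in sham libraries and from 112 to 593 CPM in ischemic libraries. The part of choroid plexus in the difference was not tested. Without the 4 libraries with TTR above 1000 CPM the log2 fold change was -0.57 for COL4A3 and -0.54 for COL4A4. Over the 9 fragments matched by number within a pair, COL4A3 was lower in ischemia in 9 and COL4A4 in 8. These are 3 fragments from each of 3 pairs, so they are not independent, and no share over all symbols is given. The summed choroid plexus markers were lower in 4 of the 9 and higher in 5. That sum includes AQP1, which was higher in ischemia and had the highest CPM of these markers in each ischemic monkey. TTR alone was lower in ischemia in each matched fragment except A2 of the first and the third pair. In those A2 fragments TTR was at 1.272 and 6.898 CPM in sham and at 8.818 and 12.45 CPM in ischemia. The fragment with the most choroid plexus marker counts had the most COL4A3 in 3 of 6 monkeys and the most COL4A4 in 4 of 6.

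COL4A5 did not go with COL4A3 and COL4A4. It was at 73.3, 48.5 and 102 CPM in sham and at 178, 82.8 and 82.5 CPM in ischemia, higher in 2 pairs and lower in the third, with a log2 fold change of 0.58 (SE 0.32) and an adjusted p of 0.408 in edgeR. Its highest library was A1 of MK503 (275 CPM), 1 of the 3 with the most oligodendrocyte marker counts, and the fragment with the most of these counts had the most COL4A5 in 5 of 6 monkeys, as did that with the most microglia marker counts. The estimate was 0.20 without the A1 fragments and 0.92 without the A3 fragments. COL4A6, whose gene lies head to head with that of COL4A5, was at 10.2, 13.0 and 12.7 CPM in sham and at 11.2, 8.12 and 9.03 CPM in ischemia (log2 fold change -0.36, SE 0.21). It was highest in A2 of MK501 (32.1 CPM) and A1 of MK508 (25.2 CPM), both among the 4 libraries with TTR above 1000 CPM. The fragment with the most counts of choroid plexus markers had the most COL4A6 in 6 of 6 monkeys, and that with the most counts of ependyma markers in 5 of 6. In the ischemic monkeys MK503, MK507 and MK506 the largest of those choroid plexus markers was AQP1 (148, 225 and 236 CPM). TTR was at 4.12, 68.7 and 10.5 CPM there.

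**Figure D3:**
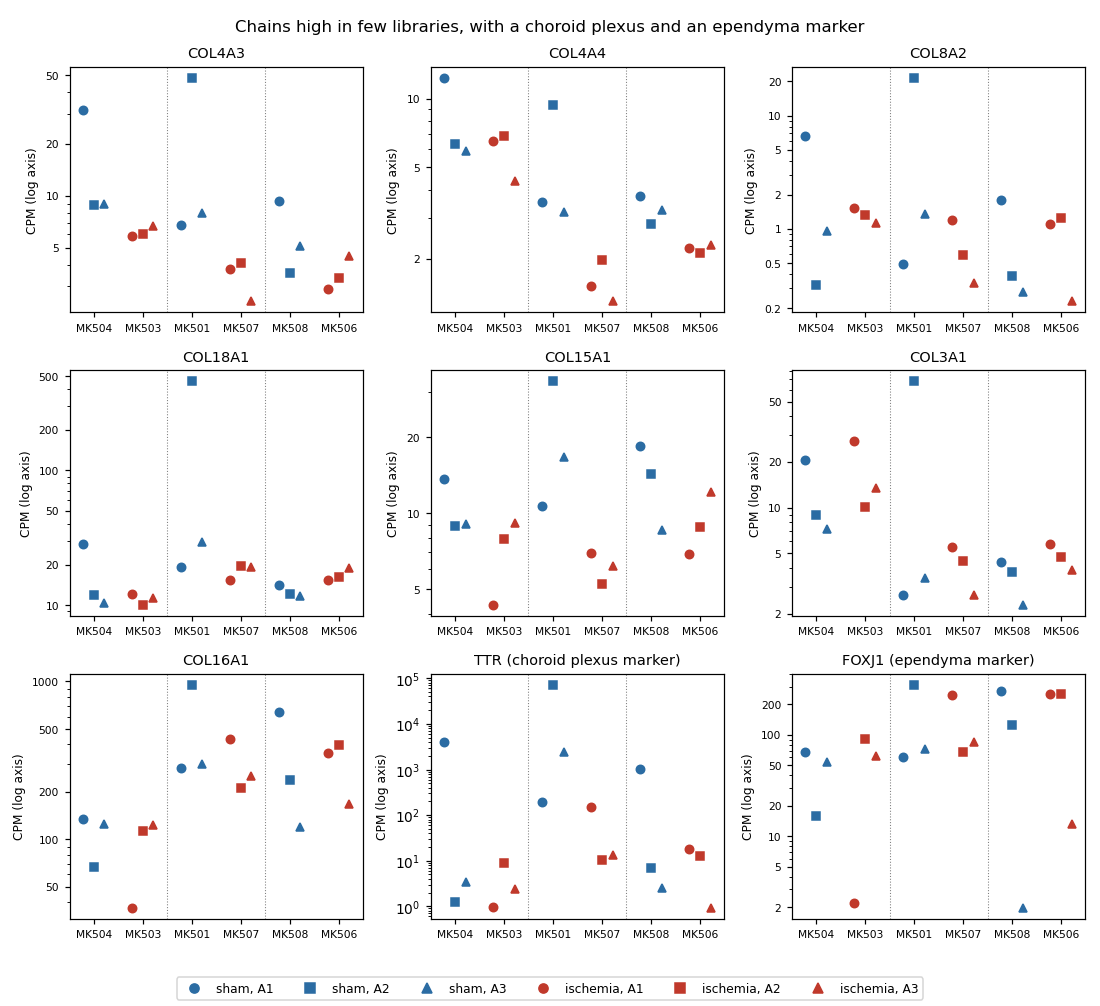
CPM (y axes, log) of 7 chains, of TTR and of FOXJ1 in each library by monkey (x axes, pairs separated by dotted lines), blue for sham and red for ischemia, with a symbol for each fragment number. The A2 library of MK501 is the highest for COL4A3 (48.1 CPM), COL8A2 (21.4 CPM), COL18A1 (457 CPM), COL15A1 (33.2 CPM), COL3A1 (67.8 CPM), COL16A1 (953 CPM) and TTR (72279 CPM).

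The multiplexins, collagens XV and XVIII, are proteoglycans of basement membranes, and COL18A1 carries at its end the peptide endostatin. COL15A1 was at 10.51, 19.2 and 14.6 CPM in sham and at 7.16, 6.23 and 9.36 CPM in ischemia, with no overlap between the groups. The log2 fold change was -0.95 (SE 0.26), with an adjusted p of 0.2302 in edgeR's quasi-likelihood test and of 0.0219 in DESeq2. It was highest in A2 of MK501 (33.2 CPM) and A1 of MK508 (18.5 CPM), both among the 4 libraries with TTR above 1000 CPM, and without those 4 the log2 fold change was -0.51. COL18A1 was at 16.6, 146 and 12.7 CPM in sham and at 11.2, 17.7 and 16.9 CPM in ischemia. Its value in MK501 was set by A2, at 457 CPM, where the other 17 libraries lay between 10.1 and 29.6 CPM. Its log2 fold change was -1.03 (SE 0.72), and -0.22 without that library. An antisense transcript of the locus, COL18A1-AS1, was also highest there, at 11.1 CPM against at most 1.75 CPM in the others, and because the counting is not stated to use strand, reads of the 2 transcripts cannot be told apart where they overlap.

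Among the short-chain network collagens, COL8A2, a chain of the membrane beneath the corneal endothelium, had the same shape. It was at 2.56, 6.70 and 0.94 CPM in sham and at 1.34, 0.78 and 0.90 CPM in ischemia, lower in each pair, the third by little. A2 of MK501 (21.4 CPM) and A1 of MK504 (6.56 CPM) stood above the other 16 libraries (0.23 to 1.798 CPM). The log2 fold change was -1.36 (SE 0.66), with an adjusted p of 0.3655 in edgeR, and it was 1.01 without the 4 libraries with TTR above 1000 CPM. COL8A1, its partner, was at 0.086 to 2.19 CPM in all libraries and gave 0.27 (SE 0.54). COL10A1, a chain of hypertrophic cartilage, was higher in all 3 pairs, at 8.61, 1.89 and 2.66 CPM in sham and 10.6, 4.21 and 3.59 CPM in ischemia (log2 fold change 0.62, SE 0.24).

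Collagen VI, the beaded filament around cells and vessels, is a trimer of COL6A1, COL6A2 and COL6A3 or a relative of it. COL6A2 was at 7.35, 23.5 and 15.6 CPM in sham and at 16.8, 26.5 and 22.0 CPM in ischemia, higher in each pair, with overlap between the groups. The log2 fold change was 0.61 (SE 0.22), with an adjusted p of 0.2909 in edgeR's quasi-likelihood test and of 0.153 in DESeq2. It was 0.34 without the 3 libraries with the most oligodendrocyte marker counts and 0.22 without the A1 fragments, but 0.96 without the A2 library of MK501 and 0.98 without the 4 libraries with TTR above 1000 CPM. COL6A1 was at 4.14, 22.7 and 7.502 CPM in sham and at 5.59, 10.8 and 8.58 CPM in ischemia, with a log2 fold change of -0.16 (SE 0.33). Its estimate too rested on A2 of MK501, where it had 55.6 CPM against at most 11.6 CPM elsewhere, and it was 0.23 without that library. COL6A3 was at 5.30, 3.08 and 3.14 CPM in sham and at 9.65, 4.97 and 2.31 CPM in ischemia (0.37, SE 0.32; 0.84 without the A2 library of MK501 and 1.34 without the 4 libraries with TTR above 1000 CPM). COL6A6 (-0.30, SE 0.26) and COL6A5, whose row was below 0.5 CPM in each library, were low.

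COL16A1, a fibril-associated chain found in skin and cartilage, had the highest mean CPM of the 44 rows. CPM of different chains are not comparable as levels, since no transcript lengths were used. COL16A1 was at 111, 477 and 373 CPM in sham and at 91.5, 315 and 315 CPM in ischemia, lower in each pair, with wide overlap between the groups. Its log2 fold change was -0.38 (SE 0.14), with an adjusted p of 0.2903 in edgeR's quasi-likelihood test and of 0.185 in DESeq2. Without the 4 libraries with TTR above 1000 CPM it was 0.24, with unlike fragments left in sham and ischemia. It varied with the ependyma markers: it was highest in A2 of MK501 (953 CPM) and A1 of MK508 (641 CPM), where FOXJ1 was at 312 and 269 CPM, and lowest in A1 of MK503 (36.7 CPM), where FOXJ1 was at 2.18 CPM. The fragment with the most ependyma marker counts had the most COL16A1 in 5 of 6 monkeys, that with the most fibroblast marker counts in 5 of 6 and that with the most choroid plexus marker counts in 4 of 6. For COL21A1, another fibril-associated chain, which was at 1.90 to 53.1 CPM over the libraries, the fragment was the same as for choroid plexus markers in 6 of 6 monkeys and as for ependyma markers in 5 of 6. Of the choroid plexus markers, AQP1 had the highest CPM in each ischemic monkey. The median log2 fold change of the ependyma markers was 0.01, and none of 10 reached an unadjusted p under 0.05.

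The other fibril-associated chains gave estimates between -0.16 (COL19A1) and 0.88 (COL20A1), and none reached an unadjusted p under 0.05. COL20A1 was at 3.11, 14.6 and 21.5 CPM in sham and 18.1, 20.1 and 19.5 CPM in ischemia, and most of its estimate of 0.88 (SE 0.54) came from the first pair, with a log2 difference of 2.53 there. The transmembrane chains COL13A1, COL17A1, COL23A1 and COL25A1 ranged from -0.38 to 0.04. COL17A1, an anchor of skin epithelium, was among the chains with no overlap between the groups, yet at 1.68 to 1.76 CPM in sham and 1.32 to 1.60 CPM in ischemia and a log2 fold change of -0.21 (SE 0.25). COL26A1 (-0.59, SE 0.26) and COL28A1 (-0.49, SE 0.28) were lower in 3 and 2 pairs.

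**Figure D4:**
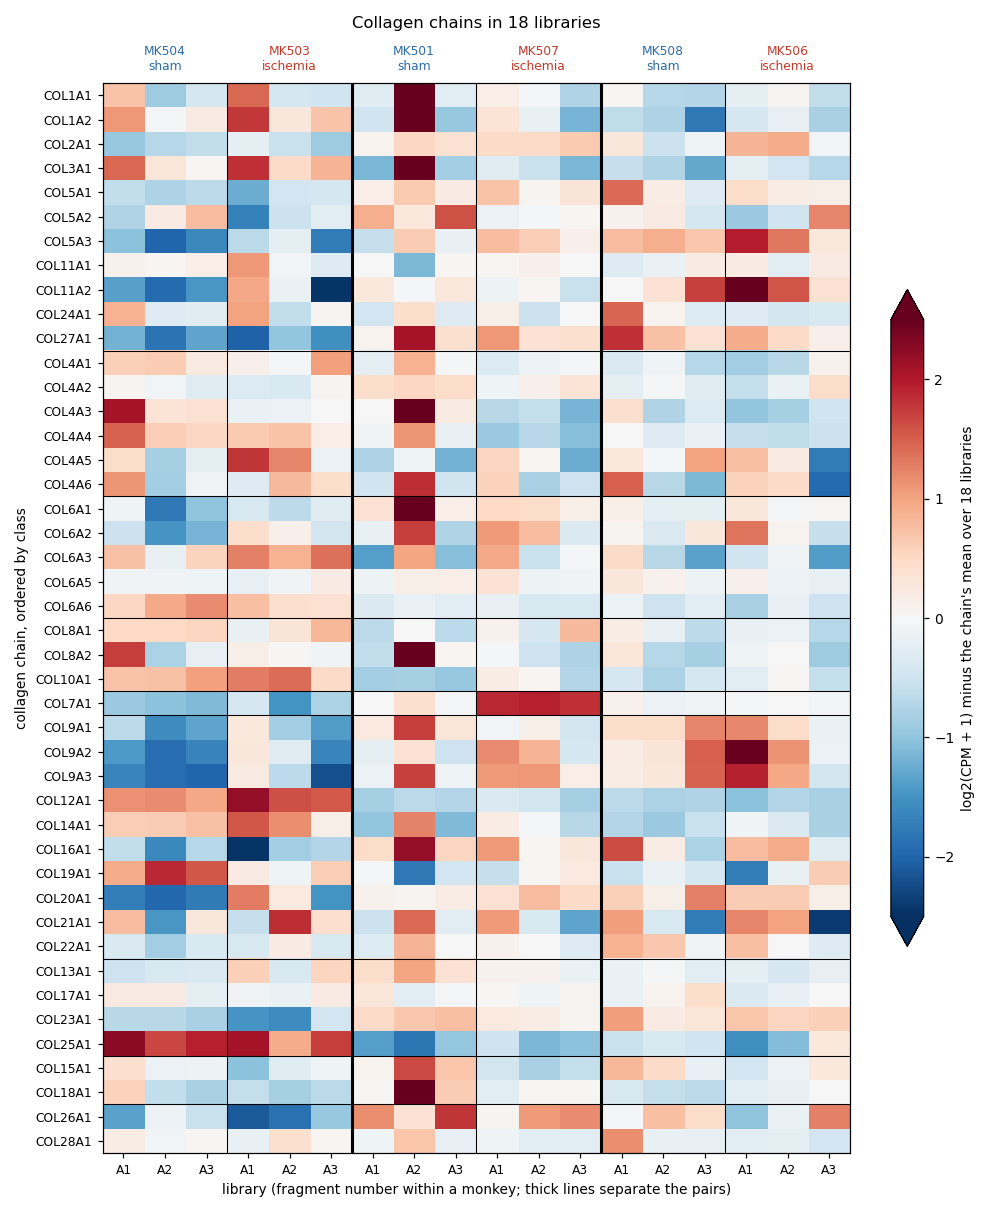
Level of the 44 chains (y axis, by class) in 18 libraries (x axis, 3 fragments for each of 6 monkeys, the pairs side by side) as log2(CPM + 1) minus the mean of the chain. The A2 library of MK501 is dark red for many chains, the first 6 columns (MK504 and MK503) are red for COL12A1, COL25A1 and COL10A1 and blue for COL27A1 and COL5A1, and COL7A1 is red in the 3 libraries of MK507.

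Several chains set a single library, a monkey or a pair apart. The A2 library of MK501 was the highest of 18 for 15 of 44 chains, a larger share than the 18.7% of all symbols for which it was. They were COL1A1, COL1A2, COL3A1, COL27A1, COL4A2, COL4A3, COL4A6, COL6A1, COL6A2, COL8A2, COL9A1, COL16A1, COL13A1, COL15A1 and COL18A1, which come from 7 of the 9 classes. The 6 libraries of the first pair lay above the other 12 for 4 chains (18.7% of symbols) and below them for 4 (18.7%). COL12A1, a chain of tendon and muscle fibrils, was at 22.7 to 54.6 CPM in the first pair and at 4.98 to 8.47 CPM elsewhere, and COL25A1, which is made by neurons and needed for motor nerve growth in mice, was at 16.1 to 41.8 CPM and at 1.57 to 9.74 CPM. COL10A1 and COL6A6 were the other chains above. Below were COL27A1 (5.08 to 11.55 CPM against 25.5 to 104 CPM), COL5A1, COL7A1 and COL23A1. Sham and ischemia were both in that pair, so these differences are not in the ischemia estimates, and what sets the pair apart was not tested. In 3 chains the 3 libraries of 1 monkey lay above all others (9.55% of symbols): COL12A1 in MK503, COL19A1 in MK504 and COL7A1 in MK507. COL7A1, the anchoring fibril of skin, was at 16.0, 16.7 and 17.4 CPM in the 3 fragments of the ischemic monkey MK507 and at 0.70 to 5.29 CPM in the other 15 libraries. Its log2 fold change of 0.79 (SE 0.46) came from that monkey, with differences of 0.30 and 0.01 in the first and the third pair.

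**Figure D5:**
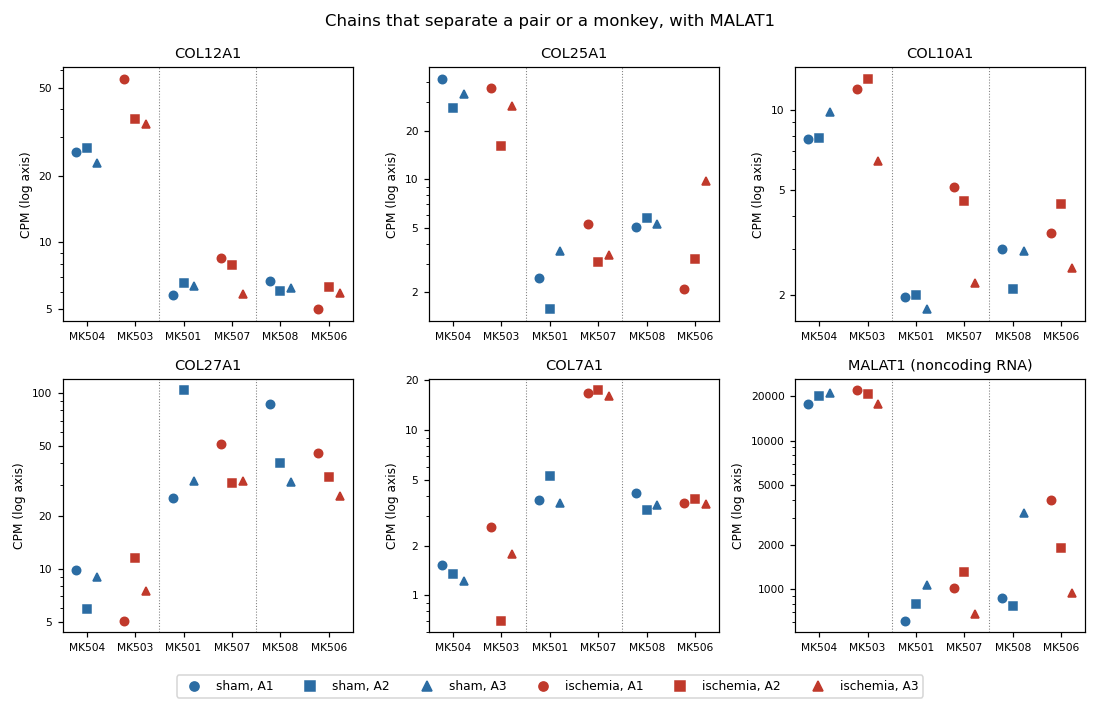
CPM (y axes, log) of 5 chains and of MALAT1 in each library by monkey (x axes, pairs separated by dotted lines), blue for sham and red for ischemia, with a symbol for each fragment number. COL12A1, COL25A1, COL10A1 and MALAT1 are higher in both monkeys of the first pair and COL27A1 is lower there, and the 3 libraries of MK507 hold COL7A1 at 16.0 to 17.4 CPM.

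The 3 fragments were then compared within monkeys over the 18 libraries. None of the 43 chains tested passed an adjusted p of 0.05, as none of 16814 symbols did (0%), with 0.4169 the smallest (edgeR's quasi-likelihood test). At an unadjusted p under 0.05 there were 3 chains (COL26A1, COL5A2 and COL24A1), where 11.4% of all symbols passed. The A3 fragment had a lower estimate than A1 in 33 of 43 chains, against 52.7% of symbols, with a median log2 difference of -0.43 beside -0.02 over all symbols. Markers of several cell types differed in the same direction: the median of A3 minus A1 was -1.31 for ependyma (10 of 10 markers lower in A3), -2.87 for choroid plexus (11 of 11 tested) and -1.055 for oligodendrocytes (10 of 10). That of striatal neuron markers was 1.48, with none of 10 lower, and the part of these cells in the values of the chains was not tested. The estimates of A3 against A1 were lowest for COL8A2 (-1.98), COL21A1 (-1.61), COL1A1 (-1.51) and COL4A6 (-1.45), and highest for COL26A1 (1.27) and COL5A2 (0.92). COL26A1, a little studied chain of testis and ovary in mice, was at 1.13 to 19.4 CPM in A1 and at 3.73 to 30.4 CPM in A3, and the fragment with the most striatal neuron marker counts had the most COL26A1 in 5 of 6 monkeys.

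Whether the ischemia difference was of the same size in the 3 fragments was tested as an interaction. Again none of 43 chains passed an adjusted p of 0.05 (0% of 17323 symbols; the smallest was 0.3047 in edgeR's quasi-likelihood test), and 7 had an unadjusted p under 0.05, where 9.82% of symbols had. They were COL4A1, COL4A2, COL4A5, COL9A2, COL9A3, COL10A1 and COL11A2. Of the 10 oligodendrocyte lineage markers, 9 had an unadjusted p under 0.05 in the same test, and their part in the values of the chains was not tested. For COL4A1 the A2 fragments had 26.1, 31.0 and 15.0 CPM in the sham monkeys, in the order of the pairs, and 15.8, 14.8 and 9.78 CPM in their ischemic partners. In A3 the order was nearly the reverse, with 19.3, 16.0 and 9.63 CPM in sham and 34.5, 15.8 and 17.8 CPM in ischemia. COL9A2 was higher in ischemia in each pair in A1 (39.0, 90.9 and 122 CPM against 129, 242 and 595 CPM) and in A2 (27.8, 137 and 134 CPM against 86.2, 194 and 233 CPM). In A3 it was at 33.1, 74.6 and 304 CPM in sham and at 33.5, 77.9 and 96.0 CPM in ischemia, even in the first and second pair and lower in the third, where the sham library A3 of MK508 had the most oligodendrocyte marker counts of all.

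Genes that make, bind and degrade collagen were read beside the chains, from lists chosen with earlier results of these data known. None of their members passed an adjusted p of 0.05 in edgeR, and their counts at an unadjusted p under 0.05 are to be set beside 8.38% higher and 8.04% lower among all symbols. Of 20 enzymes and chaperones that fold and modify collagen, 2 were higher and none was lower, with a median log2 fold change of 0.04. COLGALT2, which attaches galactose to the hydroxylysines of collagen, was at 13.5, 8.24 and 11.6 CPM in sham and at 32.3, 18.3 and 26.0 CPM in ischemia. The groups did not overlap, and the log2 fold change was 1.19 (SE 0.12), with an adjusted p of 0.2055 in edgeR and of 1.018e-08 in DESeq2. The most abundant members had small log2 fold changes, among them PDIA3 (-0.03) and PPIB (-0.05), while that of PLOD3, a lysyl hydroxylase, was 0.41 with overlapping groups.

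Of 13 genes of propeptide cleavage and cross-linking, 1 was higher (TLL2) and 2 were lower (ADAMTS3 and BMP1), with a median of -0.17. ADAMTS3, a protease that removes the amino propeptide of fibrillar procollagen, was at 79.9, 52.1 and 41.8 CPM in sham and at 27.7, 36.3 and 29.4 CPM in ischemia, with no overlap, and its log2 fold change was -0.85 (SE 0.24; adjusted p 0.2354 in edgeR, 0.0199 in DESeq2). PCOLCE, which enhances the cleavage at the other end, was at 3.46, 48.9 and 3.04 CPM in sham and at 2.03, 2.09 and 1.70 CPM in ischemia, with the high value in MK501. The A2 library of that monkey had 158 CPM, where the median library had 1.75 CPM.

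Of 11 collagen receptors tested of 12 listed, 2 were higher (DDR1 and GPR56) and 1 was lower (ITGA10), with a median of 0.21. DDR1, a receptor tyrosine kinase for collagen that oligodendrocytes and epithelia express, was at 115, 151 and 224 CPM in sham and at 196, 263 and 345 CPM in ischemia. It was higher in each pair, with a log2 fold change of 0.72 (SE 0.12) and an adjusted p of 0.2055 in edgeR and of 0.000135 in DESeq2. ITGA10, an integrin chain of cartilage that binds collagen, was at 5.91, 13.7 and 14.1 CPM in sham and at 3.45, 7.80 and 9.41 CPM in ischemia (-0.73, SE 0.16).

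Of 9 genes of collagen degradation tested of 12 listed, 1 was higher (MMP16, 0.50, SE 0.17) and none was lower, with a median of -0.11. Of 13 collagen-binding matrix proteins, 3 were higher (SPARC, MATN2 and PRELP) and none was lower, with a median of 0.07. SPARC, a chaperone-like glycoprotein that binds fibrillar collagen and collagen IV and that astrocytes and endothelium secrete in the brain, was at 153, 184 and 374 CPM in sham and at 301, 380 and 424 CPM in ischemia (0.73, SE 0.22). Astrocyte markers had a median of 0.22, and 2 of 10 were higher, GFAP among them at 1540, 2257 and 3997 CPM in sham and at 5762, 4562 and 7204 CPM in ischemia. Microglia markers had a median of -0.14, and none of 10 reached an unadjusted p under 0.05. Fibroblast and meninges markers had a median of -0.15, with 2 of 12 higher (MOXD1 and PDGFRA) and 1 lower (DPT). Their part in the values of these lists was not tested.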

How the data were processed

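RNA of 18 SVZa libraries was sequenced by the authors in single reads of 50 bases. Per the paper's methods and the submitters' notes, base calls came from CASAVA 1.8.2, quality was checked with FastQC 0.10.0, TopHat2 2.0.8 placed the reads on the genome of Macaca mulatta (Ensembl 73) with the RhesusBase annotation, and bedtools 2.16.2 counted them. The authors deposited the values as raw read counts per transcript, not normalized, with human gene symbols, so reads shared by overlapping transcripts may be counted in each. No strand setting is given in the sources used here. The table held 0 columns of other samples.

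From these counts, the row with the highest mean CPM was kept per symbol. In R 4.3.3, edgeR 4.0.16 (filterByExpr, TMM, robust quasi-likelihood F test) was fitted on all symbols, on the sums over the 3 libraries of each monkey with the pair as a block (17522 symbols, 2 residual degrees of freedom), and on the 18 libraries with the monkey as a block for the fragments and for the interaction of fragment and treatment. Adjusted p-values are Benjamini-Hochberg values over all symbols tested. The CPM printed are TMM-normalized and relative to the kept rows, while the library totals given are over all rows. DESeq2 1.42.0 was an alternative. The fit was tested on simulated data with known changes. The labels do not give the pairs; they were read from the monkey numbers in the study's supplementary expression table, matched to the libraries by value. Deviations from the group means correlated across 17522 genes at 0.874, 0.767 and 0.65 within the 3 pairs, and at -0.786 to 0.622 in other combinations. The highest of the latter were MK501 with MK506 (0.622) and MK508 with MK507 (0.467). These correlations thus set the first pair apart and hardly separate the second from the third.

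The members and gene lists were chosen with earlier results of these data known. Values are given for chains with an unadjusted p under 0.05 in the ischemia test, the 8 with the highest mean CPM, the 4 with the largest ratio of the highest to the median library at a mean of at least 0.5 CPM, and their partner chains. Other chains named (for example COL7A1, COL12A1, COL20A1, COL21A1, COL25A1 and COL26A1) were chosen after their values were seen. Of the lists of genes that make, bind and degrade collagen, the members past an unadjusted p of 0.05 are named, but only some of the most abundant. Of the marker lists, only some members are named, whether or not they passed it. For COL11A2 and COL6A3 the lowest row of the symbol held 0.092 and 0.146 of the counts of the row used, and for the other 13 chains with several rows at least 0.808. Whether the monkeys differed in handling is not stated. With the pair as a block, p-values of the ischemia fit measure the spread of the differences within these pairs. In the fits of fragments and of the interaction they measure the spread between libraries within these monkeys. Fragments left out, monkeys left out, other normalization, filters and models were tried, and 4 sets of libraries were left out after the data were seen.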

Additional observations from a re-analysis of the deposited data

Results flagged for a closer look

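Each chain was looked at in the 9 libraries of each group for a highest or lowest library that stood apart by Dixon's test. Of 88 looks, 8 stood apart. No share over all symbols is given, so whether this is many for these libraries was not tested. The nominal rate of the test, about 1 in 20, holds for independent values. In sham, the A2 library of MK501 was apart 3 times: it was high for COL18A1 (457 CPM, next 29.6 CPM) and COL1A1 (37.9 CPM, next 4.66 CPM) and low for COL11A1 (23.0 CPM, next 41.0 CPM). In ischemia, A1 of MK503 was high for COL11A1 (111 CPM, next 59.3 CPM), COL24A1 (18.7 CPM, next 9.86 CPM) and COL1A1 (8.3 CPM, next 2.86 CPM). A1 of MK506 was low for COL19A1 (2.26 CPM, next 6.18 CPM), and A3 of MK503 was low for COL20A1 (4.13 CPM, next 14.9 CPM). The 9 libraries of a group are 3 fragments from each of 3 monkeys, so they are not independent.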

How the results depend on the processing

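Of 22 named chains under 19 alternatives each, 376 estimates kept their direction and their side of an adjusted p of 0.05, 6 passed it where the reported fit did not, and 36 changed direction. No chain passed in the reported fit, and size did not enter: COL5A3 counts as kept at 0.36 without the 3 libraries with POLE2 above 10000 CPM, against 0.63. Leaving out either monkey of a pair leaves the same other pairs to compare, so those alternatives nearly repeat each other. In the counts of 44 chains at an unadjusted p under 0.05 (4 higher and 4 lower as reported), DESeq2 gave 7 and 7 (9.27% and 8.52% of all symbols). Without the replicate block of pairs the counts were 0 higher and 2 lower (0.633% and 0.628%), without the A1 fragments 0 and 0 (2.49% and 3.91%), without the A2 fragments 7 higher (6.22%), without the A3 fragments 8 and 8 (12.1% and 10.7%), and without the 3 libraries with POLE2 above 10000 CPM 7 lower (7.36%). Leaving out the A2 library of MK501 gave 9 higher (9.55%), and leaving out the 4 libraries with TTR above 1000 CPM gave 13 higher (11.3%). Library totals without TMM gave 6 higher and 3 lower (10.5% and 5.84%). Without 1 monkey, which takes its pair out too, 3 to 7 were higher (3.95% to 12.1%) and 2 to 7 lower (3.23% to 10.1%). At an adjusted p under 0.05, DESeq2 called 2 higher and 2 lower (3.85% and 2.48% of all symbols). Without the A3 fragments, edgeR called 1 higher (COL9A2) and 1 lower (COL5A2), and it called 0 under each of its other settings. The share of all symbols that edgeR called at that level without the A3 fragments is not given, so these calls cannot be set beside it. Between fragments (3 as reported), DESeq2 gave 6 (17.0%), the fit without the A2 library of MK501 gave 7 (15.9%), and leaving out 1 monkey gave 1 to 8 (4.76% to 16.8%). The interaction (7 as reported) gave 12 without that library (15.8%).

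Estimates that changed direction did so mainly where MK501, its partner or its A2 library was left out. Without the 4 libraries with TTR above 1000 CPM, the log2 fold changes were 0.24 (COL16A1), 0.18 (COL5A1), 0.11 (COL9A1), 0.13 (COL18A1), 0.91 (COL1A1), 0.75 (COL1A2), 0.80 (COL3A1), 1.01 (COL8A2) and 0.46 (COL6A1). Without the A2 library of MK501 they were 0.047 (COL9A1), 0.39 (COL1A1), 0.46 (COL3A1), 0.61 (COL1A2) and 0.23 (COL6A1). Without the A2 fragments they were 0.18 (COL1A1), 0.51 (COL3A1), 0.61 (COL1A2), 0.11 (COL4A1) and 0.15 (COL6A1), without the A1 fragments 0.050 (COL5A1) and 0.013 (COL4A2), and without the A3 fragments 0.070 (COL9A1). Leaving out 1 monkey gave -1.11 to 0.48 for COL1A1, -0.57 to 0.59 for COL1A2, -0.95 to 0.46 for COL3A1, -0.51 to 0.29 for COL9A1, -0.44 to 0.33 for COL6A1, -0.24 to 0.037 for COL4A2 and -0.25 to 0.051 for COL5A1. Where single libraries were left out, the pairs no longer held the same fragments, and the fit had no term for the fragment. The cause of these changes was not tested. Chains below a few CPM, such as COL6A5 and COL8A1, rest on few reads in the shallowest libraries.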
